A study of Mus musculus with 27 samples.

Results

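The expression of 10 macrophage genes was followed across 5 ages in cardiac fibroblasts and in whole hearts. The genes were taken by symbol. Each of the 10 symbols had a row among the 22855 genes of both count tables. Csf1r, Cd68, C1qa, C1qb, and C1qc are core macrophage genes, Mrc1, Cd163, Lyve1, and Timd4 mark resident macrophages, and Ccr2 marks monocytes and macrophages recruited from the blood. RNA-Seq of polyA RNA covered 27 samples from C57Bl/6 mice, and the samples' labels name no transgene, treatment, or injury. Cardiac fibroblasts sorted by flow cytometry for PDGFRα came from 3 samples at postnatal day 1, 3 at 4 weeks, and 2 at each later age (14 weeks, 1 year, 1.5 years). Whole hearts came from 3 samples at each of the same ages. Per the study's methods, the hearts of an age came from separate animals and the fibroblast sets from different hearts, although the methods give more fibroblast sets at the oldest ages than the labels do. The study also states that the sequenced hearts were those that gave the fibroblasts. The 2 tissues may therefore share animals. The labels name no such pairs, and all tests between the tissues were unpaired. Neither source says whether hearts were pooled within a fibroblast set. The study's methods name PDGFRα as the sort antigen for these samples, and they name no antigen used to remove leukocytes.

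Resident macrophages are the most abundant immune cells of the healthy heart. They are seeded before birth, maintain themselves largely by local division, clear dying cells and debris, and depend on signals through the receptor CSF1R, whose ligands are CSF1 and IL-34. A second population derives from circulating monocytes that enter tissue through the chemokine receptor CCR2. Macrophages are also a main source of C1q, the recognition molecule of the classical complement pathway, which is assembled from the products of C1qa, C1qb, and C1qc and works with the proteases C1r and C1s. CD68 is a lysosomal glycoprotein, CD206 (the product of Mrc1) is a mannose receptor, CD163 takes up hemoglobin bound to haptoglobin, LYVE1 binds hyaluronan, and TIM4 (the product of Timd4) binds phosphatidylserine on dying cells. Lyve1 is expressed by lymphatic endothelial cells as well as by resident macrophages.

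The 3 C1q genes lie side by side on the minus strand of chromosome 4, within 18675 bases (GRCm38 chr4:136880129-136898803). Promoters are shown for the members whose window holds the PU.1 motif described below. RefSeq promoter windows on GRCm38.p6, which run from 250 bases before to 50 bases after a gene's start and are read on the gene's own strand, were matched for 7 of the 10 genes. The core of the site bound by PU.1, a transcription factor of the macrophage lineage, was searched as GAGGAA on both strands (TTCCTC on the other). It was found in 28.3% of all 32851 windows and in 4 of the 7 windows matched, with 3 matches for Mrc1, 2 for Cd68, and 1 each for C1qb and C1qc. These 4 windows follow, with the matches in capitals, for C1qb at chr4:136886151-136886450, C1qc at chr4:136892865-136893164, Cd68 at chr11:69666121-69666420 on the minus strand, and Mrc1 at chr2:14229164-14229463 on the plus strand.
C1qb: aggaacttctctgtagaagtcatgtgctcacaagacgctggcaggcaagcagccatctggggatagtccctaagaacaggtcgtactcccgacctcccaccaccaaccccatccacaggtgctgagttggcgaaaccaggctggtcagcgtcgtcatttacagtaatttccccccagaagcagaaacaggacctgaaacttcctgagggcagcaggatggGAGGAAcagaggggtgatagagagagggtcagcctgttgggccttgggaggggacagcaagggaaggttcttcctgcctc
C1qc: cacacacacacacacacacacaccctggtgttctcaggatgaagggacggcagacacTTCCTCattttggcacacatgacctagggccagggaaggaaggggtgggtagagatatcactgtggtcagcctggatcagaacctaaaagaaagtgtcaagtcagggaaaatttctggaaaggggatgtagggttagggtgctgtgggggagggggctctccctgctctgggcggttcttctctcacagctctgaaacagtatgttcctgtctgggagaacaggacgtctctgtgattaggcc
Cd68: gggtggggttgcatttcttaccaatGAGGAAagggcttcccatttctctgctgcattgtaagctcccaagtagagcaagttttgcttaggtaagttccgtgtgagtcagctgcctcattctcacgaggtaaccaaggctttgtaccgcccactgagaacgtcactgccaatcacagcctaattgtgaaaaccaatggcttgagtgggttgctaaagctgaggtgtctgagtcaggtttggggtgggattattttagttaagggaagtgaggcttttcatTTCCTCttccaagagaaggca
Mrc1: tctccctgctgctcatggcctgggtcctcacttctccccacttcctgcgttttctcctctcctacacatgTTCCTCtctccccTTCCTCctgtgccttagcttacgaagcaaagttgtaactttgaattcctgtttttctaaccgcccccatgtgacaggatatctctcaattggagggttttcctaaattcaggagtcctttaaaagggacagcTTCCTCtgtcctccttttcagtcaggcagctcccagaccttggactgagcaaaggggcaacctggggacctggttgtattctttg
The windows of Cd163, Timd4, and Ccr2 held no match. TGCTGAC, which is part of the site bound by MAF factors, was found in 4.67% of all windows and in 1 of the 7, that of Timd4. A match is a run of letters and was not tested for binding.

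Total counts were between 54615898 and 76758831 per sample in cardiac fibroblasts and between 46091271 and 67984404 in whole hearts, and genes of the mitochondrial genome took between 1.74% and 9.18% and between 10.8% and 34.5% of them. Levels are given as CPM, the counts of a gene relative to the library total after scaling of all 27 samples by the TMM method. Changes are log2 fold changes, tested in edgeR by the quasi-likelihood F test, and every adjusted p is a Benjamini-Hochberg value over all genes tested (threshold 0.05). Fibroblast markers (Pdgfra, Dcn, Col1a1, Tcf21, Lum, and Col3a1) summed to between 16668 and 47359 CPM in the sorted samples and to between 796 and 2119 CPM in whole hearts. Cardiomyocyte markers summed to between 514 and 576 CPM in sorted samples of postnatal day 1 and to at most 119.7 CPM at later ages. Xist was at most 0.641 CPM in every sample of 14 weeks and 1 year and at least 7.13 CPM at the other ages, and the Y-linked gene Ddx3y was at most 0.454 CPM at 1.5 years and at least 1.80 CPM before. Every sample of postnatal day 1 and 4 weeks thus held RNA of both genes, in both tissues. Whether animals were pooled was not tested. Sex is not among the labels, so age and sex cannot be told apart at these steps. The fibroblast samples are numbered 1 to 3 at the first 2 ages and 4 to 6 at the later ages, so age and that numbering cannot be told apart either. In bulk RNA, fewer cells of a type and less RNA per cell cannot be told apart.

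Summed over all 10 genes, macrophage transcripts in whole hearts were lowest at postnatal day 1, between 96.5 and 142 CPM, and at least 335 CPM in every later sample. In cardiac fibroblasts the sum followed another course. It was between 140.1 and 226 CPM at postnatal day 1, between 299 and 507 CPM at 4 weeks, and at most 65.04 CPM at every later age, with the lowest values, 21.1 and 25.6 CPM, at 1 year. The 5 core genes summed to between 65.6 and 696 CPM in whole hearts and between 12.2 and 366 CPM in cardiac fibroblasts, and the 4 resident genes to between 27.7 and 120.7 CPM and between 5.87 and 141 CPM.

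In whole hearts the core genes rose steeply between birth and 4 weeks. Csf1r, the receptor on which macrophages depend, was 13.8, 15.9, and 13.3 CPM at postnatal day 1 and 76.7, 71.6, and 78.4 CPM at 4 weeks. It was 53.2, 46.5, and 65.5 CPM at 14 weeks, 73.6, 67.5, and 61.0 CPM at 1 year, and 57.5, 76.0, and 68.1 CPM at 1.5 years. The samples of postnatal day 1 lay below all others, and the later ages overlapped except that 4 weeks lay above 14 weeks and 1 year overlapped with both. The rise to 4 weeks was 2.42 on the log2 scale (SE 0.17, adjusted p = 4.78e-08, edgeR's quasi-likelihood F test), from a mean of 14.3 ± 1.39 to 75.6 ± 3.54 CPM (SD, n = 3 each). The exons of Csf1r overlap those of Hmgxb3 on the opposite strand over 873 bases, and the strand used for counting is not given in the sources used here, so some of its reads could belong to that gene.

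Cd68, the lysosomal glycoprotein, was 7.67, 3.88, and 6.505 CPM in hearts of postnatal day 1 and 13.6, 17.1, and 24.2 CPM at 4 weeks. At the later ages it was 10.9, 16.8, and 7.45 CPM (14 weeks), 27.5, 19.9, and 18.0 CPM (1 year), and 30.7, 23.4, and 19.0 CPM (1.5 years). The level at 4 weeks was above every sample of postnatal day 1, and both oldest ages lay above every sample of 14 weeks. Its log2 fold change from postnatal day 1 to 4 weeks was 1.63 (adjusted p = 0.00287), and from 14 weeks to 1.5 years 1.00 (SE 0.34), which did not pass the threshold (adjusted p = 0.0620, edgeR's quasi-likelihood F test). The latter passed with DESeq2 in place of edgeR (adjusted p = 0.0220), with library size only (adjusted p = 0.0328), and with median-of-ratios size factors (adjusted p = 0.0473).

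**Figure D1:**
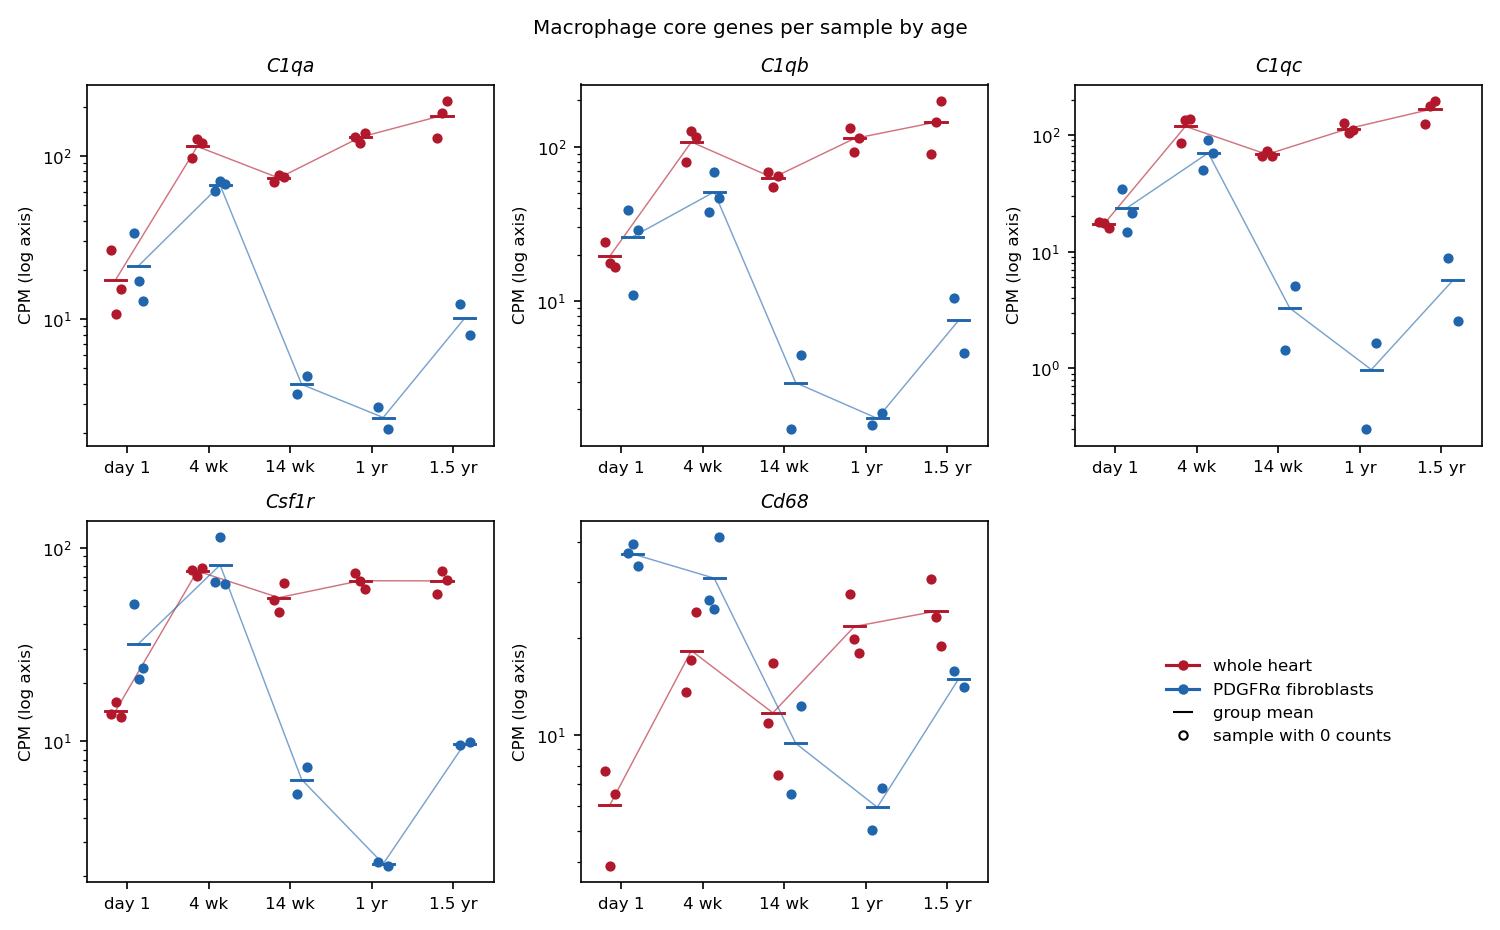
Levels of Csf1r, Cd68, C1qa, C1qb, and C1qc in each sample (CPM, log axis) at the 5 ages, with whole hearts and cardiac fibroblasts in separate colors, bars at the group means, and lines that join the means. In whole hearts, all samples of postnatal day 1 lie below those of 4 weeks, whereas in cardiac fibroblasts all samples from 14 weeks on lie below those of 4 weeks.

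The 3 C1q genes had the same course in whole hearts. C1qa was 26.3, 10.7, and 15.2 CPM at postnatal day 1, 96.3, 126, and 119 CPM at 4 weeks, 68.8, 75.8, and 74.0 CPM at 14 weeks, 131, 120.2, and 138 CPM at 1 year, and 128, 183, and 216 CPM at 1.5 years. C1qb was 24.2, 17.7, and 16.7 CPM, then 79.5, 126, and 116 CPM, then 69.0, 54.98, and 64.7 CPM, then 132, 92.4, and 114 CPM, and last 90.1, 145, and 198 CPM at the same ages. C1qc was 18.0, 17.5, and 15.9 CPM, then 85.5, 133, and 135 CPM, then 65.4, 72.6, and 65.5 CPM, then 127, 102, and 109 CPM, and last 122, 176, and 194 CPM. For each of the 3 genes every sample of 14 weeks lay above postnatal day 1 and below 4 weeks, 1 year, and 1.5 years. The rises to 4 weeks were 2.74 for C1qa (SE 0.27, adjusted p = 1.73e-06), 2.48 for C1qb (SE 0.26, adjusted p = 3.86e-06), and 2.80 for C1qc (SE 0.20, adjusted p = 6.11e-08) on the log2 scale. By 1.5 years they stood 3.31, 2.85, and 3.23 above postnatal day 1, with adjusted p values of at most 6.73e-07. With an offset for exon length, added after the data were seen, these were 2.47, 1.99, and 2.70 (adjusted p at most 7.7e-07, edgeR's quasi-likelihood F test). Of genes with 1000 to 2000 exon bases, 38.2% were called higher at 1.5 years than at postnatal day 1.

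Among the resident genes, Mrc1, the mannose receptor, was 8.16, 15.5, and 9.72 CPM in hearts of postnatal day 1 and 37.2, 28.7, and 51.4 CPM at 4 weeks. Thereafter it was 26.6, 23.8, and 28.3 CPM (14 weeks), 39.1, 42.0, and 40.5 CPM (1 year), and 39.4, 30.7, and 26.9 CPM (1.5 years). Its rise to 4 weeks was 1.83 on the log2 scale (SE 0.26, adjusted p = 7.71e-05), and all later samples lay above those of postnatal day 1. Cd163, the scavenger receptor for hemoglobin, was low at birth, with 2.16, 0.0230, and 0.963 CPM (176, 2, and 81 counts), against 40.5, 20.3, and 36.2 CPM at 4 weeks. It was 20.6, 15.9, and 24.2 CPM at 14 weeks, 31.2, 24.3, and 26.1 CPM at 1 year, and 17.5, 18.2, and 15.0 CPM at 1.5 years, so that every sample of the oldest age lay below every sample of 4 weeks and 1 year. Its rise to 4 weeks was 4.97 (SE 0.75, adjusted p = 0.000154).

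Timd4, a marker of self-maintaining macrophages, had 0, 0, and 8 counts in hearts of postnatal day 1, where a count of 0 allows up to 3 counts. It was between 1.22 and 2.61 CPM at 4 weeks, between 1.63 and 3.46 CPM at 14 weeks, between 2.37 and 6.33 CPM at 1 year, and between 1.13 and 3.54 CPM at 1.5 years. Its rise to 4 weeks was 5.67 on the log2 scale with an SE of 1.27 (adjusted p = 0.00454), a value that depends on counts near 0. It did not pass with only these 2 ages in the fit (adjusted p = 0.0618). Lyve1, the hyaluronan receptor, had no such rise. It was 41.4, 26.3, and 16.9 CPM at postnatal day 1, 26.1, 17.7, and 30.5 CPM at 4 weeks, and 29.5, 24.0, and 35.3 CPM at 14 weeks. At 1 year it was 39.0, 39.2, and 36.3 CPM and at 1.5 years 59.5, 40.6, and 24.2 CPM. The groups overlapped except that 1 year lay above 14 weeks and 4 weeks, and the log2 fold change was -0.16 to 4 weeks (SE 0.32, adjusted p = 0.799) and 0.52 between postnatal day 1 and 1.5 years (adjusted p = 0.232). Markers of lymphatic endothelial cells, which also express Lyve1, summed to between 80.2 and 141 CPM in whole hearts, and their part in the level of Lyve1 was not tested.

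Ccr2, the receptor of recruited monocytes, was low and variable in whole hearts. It was 0.540, 0.873, and 1.12 CPM at postnatal day 1, 1.22, 0.336, and 2.96 CPM at 4 weeks, 4.22, 1.29, and 0.978 CPM at 14 weeks, 6.30, 7.18, and 14.3 CPM at 1 year, and 8.005, 0.436, and 1.93 CPM at 1.5 years. Every sample of 1 year lay above every sample of the 3 younger ages. The log2 fold change from 14 weeks to 1 year was 2.09 (SE 0.96, adjusted p = 0.338), and it passed with only these 2 ages in the fit (adjusted p = 0.0368). The test over all 5 ages passed, near the threshold (adjusted p = 0.0475, edgeR's quasi-likelihood F test). With single samples left out, 8 or 9 members passed that test in whole hearts, and the gene lost was not recorded.

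**Figure D2:**
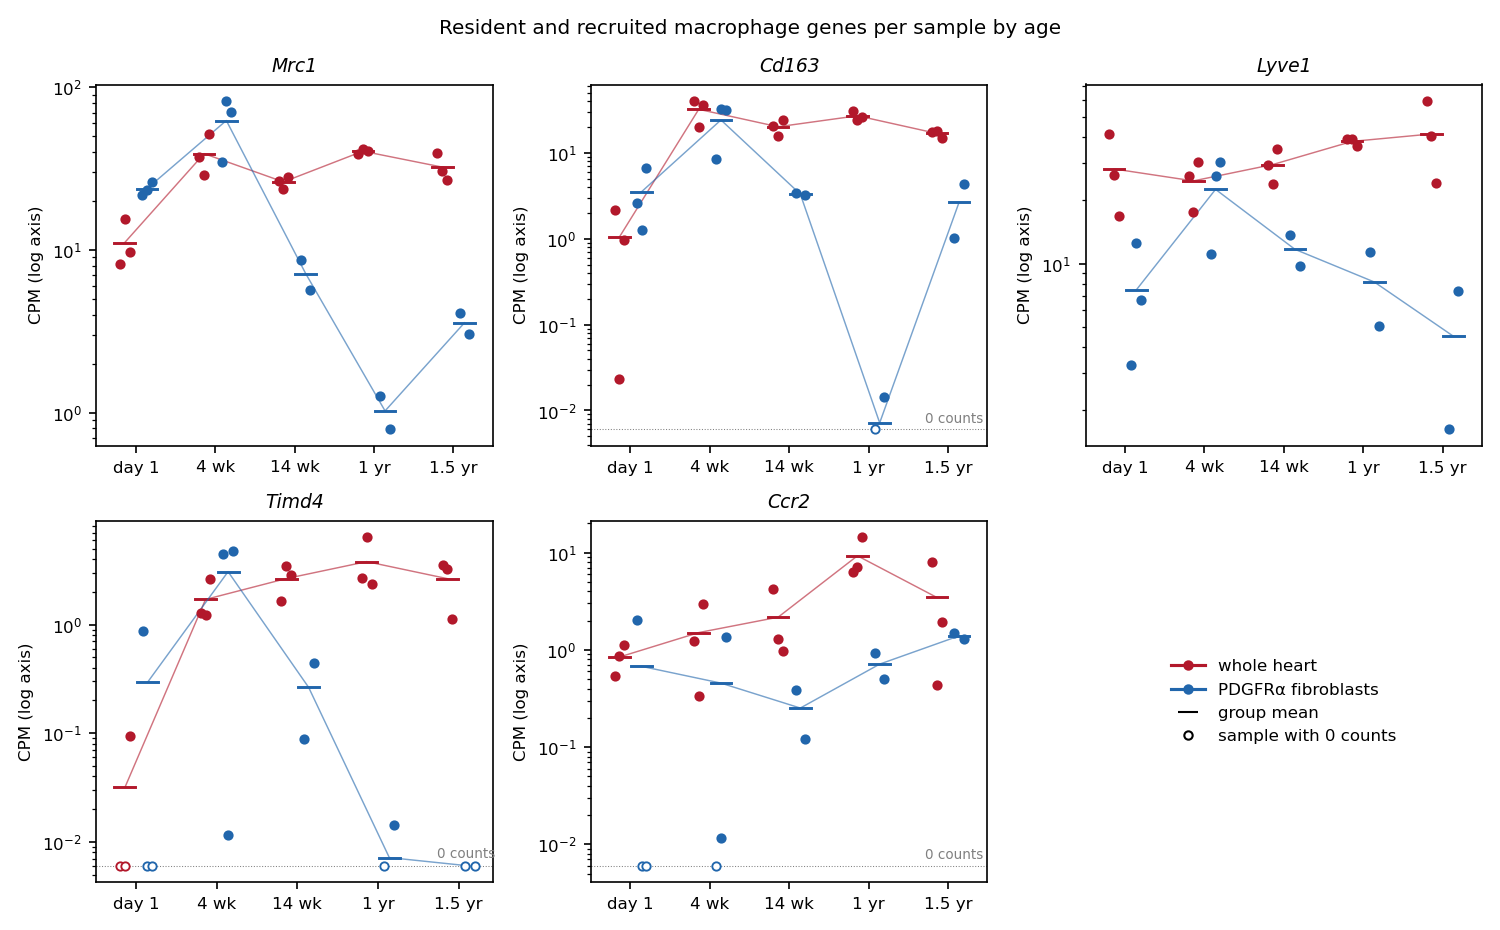
Levels of the resident genes Mrc1, Cd163, Lyve1, and Timd4 and of the recruited gene Ccr2 in each sample (CPM, log axis) at the 5 ages in whole hearts and cardiac fibroblasts, with bars at the group means, lines that join the means, and open circles for samples with 0 counts. Cd163 and Timd4 reach 0 or 1 count in both fibroblast samples of 1 year, and Ccr2 in whole hearts has its highest mean at 1 year.

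Counted over the members, 8 of the 10 genes rose in whole hearts up to 4 weeks, all but Lyve1 and Ccr2, against 12.1% of all genes tested. In each of the 8, every sample of 4 weeks lay above every sample of postnatal day 1. The median log2 fold change of the 10 genes was 2.45. The same 8 genes were higher at 1.5 years than at postnatal day 1, against 15.6% of all genes, and 9 of the 10 changed over any of the ages, against 34.3%. Between 4 and 14 weeks, 1 gene fell, C1qc, by 0.80 on the log2 scale (adjusted p = 0.0430), against 0.850% of all genes, and 5 genes (Csf1r, C1qa, C1qb, C1qc, and Mrc1) had all samples of 14 weeks below those of 4 weeks. The call of C1qc was lost with median-of-ratios size factors (adjusted p = 0.0517) and when single samples were left out in 12 of 15 cases. From 14 weeks to 1 year none of the 10 genes passed with edgeR, against 0.972% of all genes, although 6 had an unadjusted p under 0.05 and 8 had every sample of 1 year above every sample of 14 weeks. DESeq2 called 3 genes at that step, and edgeR with only the 2 ages called 5, both without a share of all genes beside them. Counts by unadjusted p and counts without overlap were not made over all genes. Neither they nor the counts by DESeq2 and with only the 2 ages set the members apart from other genes.

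Between 14 weeks and 1.5 years the C1q genes rose with edgeR, by 1.21 on the log2 scale for C1qa (SE 0.25, adjusted p = 0.00535), 1.14 for C1qb (SE 0.25, adjusted p = 0.00727), and 1.22 for C1qc (SE 0.19, adjusted p = 0.00114). These are 3 of the 10 genes, against 4.91% of all genes higher at this step. Age and sex cannot be told apart between these 2 ages. Csf1r had a log2 fold change of 0.23 (adjusted p = 0.373) and Mrc1 of 0.25 (adjusted p = 0.581). The C1q genes have short transcripts, with 1040, 1088, and 1931 exon bases, whereas Csf1r has 5774 and Mrc1 6371. At this step genes with 1000 to 2000 exon bases had a median log2 fold change of 0.55 and 22.5% were called higher, while those with 5000 to 7000 exon bases had a median of -0.25 and 1.96% were called higher. With an offset for exon length, an alternative chosen after the data were seen, C1qc still passed (0.82, adjusted p = 0.00427), but C1qa (0.53, adjusted p = 0.146) and C1qb (0.45, adjusted p = 0.156) did not, and 1 gene was called in place of 3. With that offset Csf1r (0.49, adjusted p = 0.0805) and Mrc1 (0.54, adjusted p = 0.164) had log2 fold changes near those of C1qa and C1qb.

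In cardiac fibroblasts the core genes were present at postnatal day 1 and 4 weeks and low from 14 weeks on. Csf1r was 51.0, 20.9, and 23.7 CPM at postnatal day 1 and 66.1, 113, and 64.8 CPM at 4 weeks. It was 5.31 and 7.30 CPM at 14 weeks, 2.37 and 2.25 CPM at 1 year, and 9.52 and 9.85 CPM at 1.5 years. No 2 ages overlapped. Csf1r rose by 1.37 on the log2 scale to 4 weeks (SE 0.32, adjusted p = 0.0113) and fell by 3.68 from 4 to 14 weeks (SE 0.42, adjusted p = 0.000623, edgeR's quasi-likelihood F test). Its mean was 81.2 ± 27.4 CPM (SD, n = 3) at 4 weeks and 6.30 ± 1.41 CPM (SD, n = 2) at 14 weeks.

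C1qa was 33.6, 16.9, and 12.9 CPM in cardiac fibroblasts of postnatal day 1, 60.6, 69.6, and 67.3 CPM at 4 weeks, 3.44 and 4.47 CPM at 14 weeks, 2.87 and 2.09 CPM at 1 year, and 12.2 and 7.95 CPM at 1.5 years. C1qb was 38.7, 10.95, and 28.6 CPM, then 37.9, 68.2, and 46.7 CPM, then 1.47 and 4.44 CPM, then 1.58 and 1.89 CPM, and last 10.4 and 4.598 CPM. C1qc was 34.4, 14.6, and 21.5 CPM, then 49.4, 90.7, and 69.0 CPM, then 1.44 and 5.11 CPM, then 0.2996 and 1.65 CPM, and last 8.78 and 2.54 CPM. Every sample of the 3 oldest ages lay below every sample of the first 2 for all 3 genes. The falls from 4 to 14 weeks were 4.05 for C1qa (SE 0.42, adjusted p = 0.000348), 4.11 for C1qb (SE 0.64, adjusted p = 0.00444), and 4.41 for C1qc (SE 0.82, adjusted p = 0.0115) on the log2 scale. C1qa rose to 4 weeks by 1.67 (SE 0.32, adjusted p = 0.00324), while the log2 fold changes of C1qb (0.99, adjusted p = 0.191) and C1qc (1.59, adjusted p = 0.103) did not pass.

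Cd68 in cardiac fibroblasts was 37.2, 39.5, and 33.7 CPM at postnatal day 1, 26.4, 24.8, and 41.4 CPM at 4 weeks, 6.51 and 12.3 CPM at 14 weeks, 5.04 and 6.81 CPM at 1 year, and 15.9 and 14.1 CPM at 1.5 years. The first 2 ages overlapped, and their log2 fold change was -0.22 (SE 0.27, adjusted p = 0.662). Cd68 fell from 4 to 14 weeks by 1.72 (SE 0.32, adjusted p = 0.0124), a call that was lost with only these 2 ages in the fit (adjusted p = 0.0583).

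Of the resident genes in cardiac fibroblasts, Mrc1 was 21.9, 23.5, and 26.1 CPM at postnatal day 1, 34.7, 82.5, and 70.3 CPM at 4 weeks, 8.63 and 5.69 CPM at 14 weeks, 1.26 and 0.789 CPM at 1 year, and 4.08 and 3.06 CPM at 1.5 years. No ages overlapped. Mrc1 rose by 1.42 to 4 weeks (adjusted p = 0.00746), fell by 3.12 to 14 weeks (SE 0.39, adjusted p = 0.00118), and fell again by 2.87 to 1 year (SE 0.42, adjusted p = 0.00569). Cd163 was 2.63, 1.26, and 6.74 CPM at postnatal day 1, 8.50, 32.6, and 31.8 CPM at 4 weeks, and 3.43 and 3.22 CPM at 14 weeks. At 1 year it had 0 and 1 count, and at 1.5 years it was 1.01 and 4.31 CPM. It rose to 4 weeks by 2.81 (SE 0.74, adjusted p = 0.0215) and at 1 year it was at least 80.9-fold lower than at 14 weeks, computed against a floor of 3 counts per library (adjusted p = 0.0107). Both calls at the step to 1 year were lost without the fibroblast sample 4 of 14 weeks or the sample 5 of 1 year.

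Timd4 in cardiac fibroblasts went from 0.881, 0, and 0 CPM at postnatal day 1 to 4.46, 0.0117, and 4.73 CPM at 4 weeks, and to 0.0882 and 0.439 CPM at 14 weeks. It had 0 and 1 count at 1 year and 0 counts in both samples of 1.5 years. Within 4 weeks, 2 samples had 378 and 416 counts and the other had 1 count, and no step of Timd4 passed. Lyve1 was 3.30, 12.5, and 6.67 CPM, then 11.1, 26.1, and 30.5 CPM, then 13.6 and 9.75 CPM, then 11.3 and 5.05 CPM, and last 1.62 and 7.37 CPM. Its neighboring ages overlapped, and among the steps tested its largest log2 fold change was 1.63 to 4 weeks (SE 0.62, adjusted p = 0.101). Lymphatic endothelial markers summed to between 64.8 and 147 CPM in these samples and to between 64.8 and 84.3 CPM at 4 weeks, and their part in the level of Lyve1 was not tested. Ccr2 was at most 2.03 CPM in every fibroblast sample and had 0 counts in 3 of the 6 samples of the first 2 ages.

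**Figure D3:**
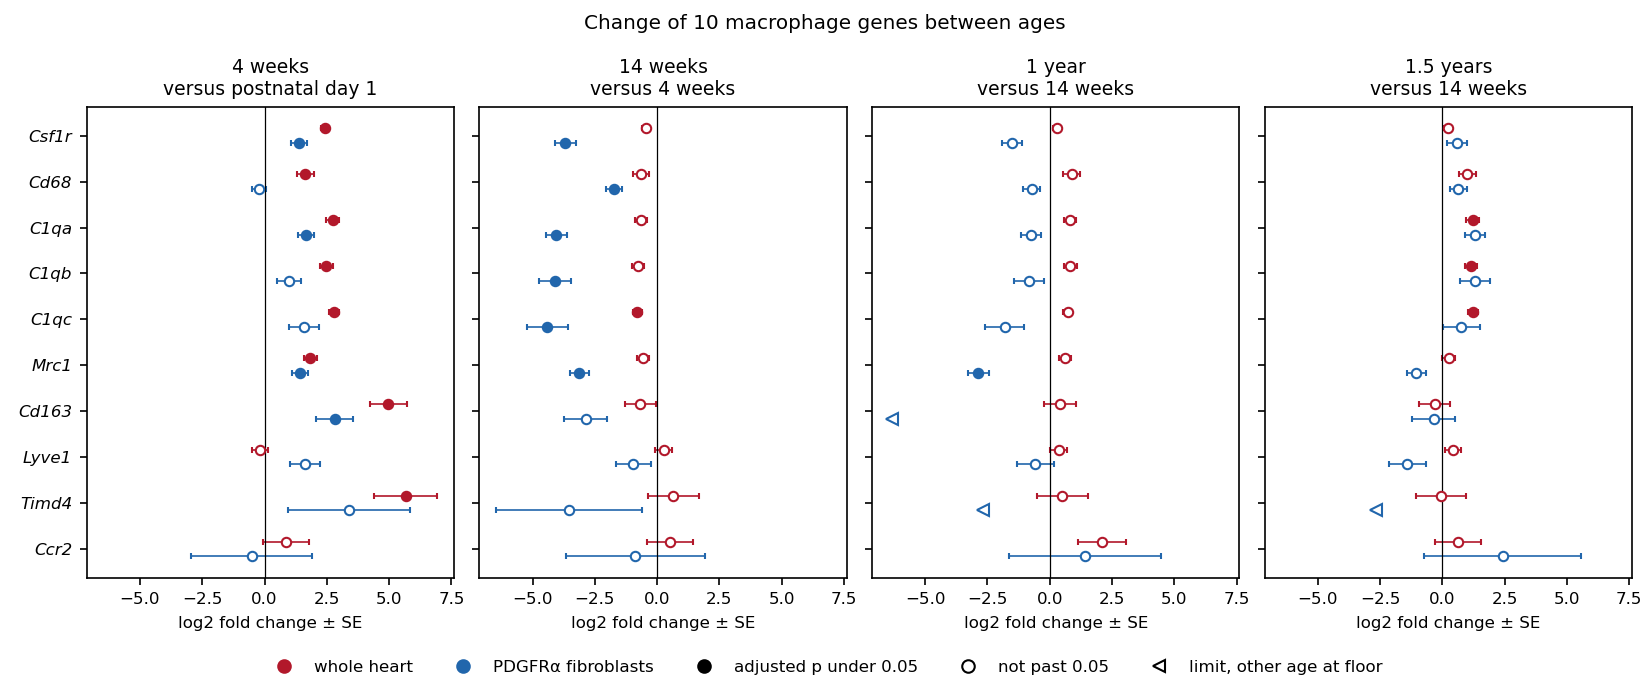
Log2 fold changes (with SE) of the 10 genes at each step in age, for whole hearts and cardiac fibroblasts, with filled symbols for an adjusted p under 0.05 and triangles for limits where a group had at most 3 counts per sample. From 4 to 14 weeks the core genes and Mrc1 lie between -4.41 and -1.72 in cardiac fibroblasts and between -0.80 and -0.46 in whole hearts.

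Counted over the members, 4 of the 10 genes (Csf1r, C1qa, Mrc1, and Cd163) were higher in cardiac fibroblasts at 4 weeks than at postnatal day 1, against 9.28% of all genes tested. Without the sample 2 of 4 weeks, 2 were called, and the calls of Csf1r and Cd163 were lost. From 4 to 14 weeks 6 genes fell, the 5 core genes and Mrc1, against 2.08% of all genes lower, and the median log2 fold change of the 10 genes was -3.33. Age and sex cannot be told apart at this step. In 7 genes, with Cd163 added, every sample of 14 weeks lay below every sample of 4 weeks, a count not made over all genes. Without the fibroblast sample 4 of 14 weeks, 3 of these calls remained (Csf1r, C1qa, and Mrc1). From 14 weeks to 1 year 2 genes fell, Mrc1 and Cd163, against 0.474% of all genes lower. Between postnatal day 1 and 1.5 years 4 genes fell (Csf1r by 1.72, Cd68 by 1.30, C1qb by 1.81, and Mrc1 by 2.75), against 6.46% of all genes, and the calls of Cd68 and C1qb were lost without the sample 5 of 1.5 years, and those of Csf1r and Cd68 without the sample 4. The call of C1qb was also lost when any of several other fibroblast samples was left out, those of 4 weeks among them. Over any of the ages 7 of the 10 genes changed, against 19.9% of all genes.

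From 14 weeks to 1.5 years none of the 10 genes passed in cardiac fibroblasts with edgeR, against 2.72% of all genes. An unadjusted p under 0.05 was reached by 3, a count not made over all genes. DESeq2 called 1 of the 10, C1qa, but it called 1265 genes in all at this step, against 511 with edgeR. The lowest level for 7 of the 10 genes was at 1 year, and the samples of 1.5 years lay above both samples of 14 weeks for Csf1r, Cd68, C1qa, C1qb, and Ccr2 and below them for Mrc1, Lyve1, and Timd4. Groups of 2 samples can separate without a change, and the share of all genes that did so was not computed. Neutrophil markers summed to 7.21 and 37.0 CPM in the samples of 1.5 years and to at most 4.06 CPM in every other fibroblast sample. Blood endothelial markers summed to between 1155 and 1382 CPM at 14 weeks and between 428 and 584 CPM at 1 year. Their part in the levels of the macrophage genes was not tested.

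The sorted cells were next set against the whole hearts of the same age. At postnatal day 1 cardiac fibroblasts carried more of 3 genes, Csf1r (1.15 on the log2 scale, SE 0.26, adjusted p = 0.00128), Cd68 (2.61, SE 0.35, adjusted p = 2.02e-06), and Mrc1 (1.0998, SE 0.30, adjusted p = 0.00536), and less Lyve1 (-1.92, SE 0.52, adjusted p = 0.00550). With the offset for exon length, C1qa (from 0.28 to 1.21, adjusted p = 0.00104) and C1qb (from 0.42 to 1.32, adjusted p = 0.00710) were called higher as well. Of all genes tested, 13.6% were higher and 18.7% lower in cardiac fibroblasts at that age. At 4 weeks 2 of the 10 genes were lower in cardiac fibroblasts, a share near the 18.6% of all genes lower. These were C1qa (-0.79, adjusted p = 0.0430) and C1qb (-1.08, adjusted p = 0.0389, edgeR's quasi-likelihood F test). Both differences turned their direction with the offset for exon length, to 0.43 (adjusted p = 0.213) and 0.12 (adjusted p = 0.869), while Cd68 was called higher with it (1.82, adjusted p = 0.000187). Both calls were lost when any of several single libraries was left out, the fibroblast samples 1 and 3 of 4 weeks among them. Genes with 1000 to 2000 exon bases had a median log2 difference of -0.81 at 4 weeks, and 39.8% of them were called lower.

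From 14 weeks on every member called was lower in cardiac fibroblasts. At 14 weeks 6 genes were lower in cardiac fibroblasts, against 17.7% of all genes, and these were Csf1r (-3.13, SE 0.33), C1qa (-4.20, SE 0.41), C1qb (-4.41, SE 0.55), C1qc (-4.37, SE 0.63), Mrc1 (-1.87, SE 0.35), and Cd163 (-2.61, SE 0.92), each with an adjusted p of at most 0.0304. Of genes with 1000 to 2000 exon bases, 37.3% were lower at that age. With the offset for exon length all 6 genes were still called. Csf1r was then -3.41, C1qa -2.92, C1qb -3.16, and C1qc -3.73. At 1 year 9 genes were lower, all but Ccr2, against 15.7% of all genes, with C1qc at -6.86 (SE 0.72), Csf1r at -4.86 (SE 0.37), and Mrc1 at -5.30 (SE 0.43). Cd163 was at least 662.5-fold lower and Timd4 at least 92.4-fold lower at that age, against the floor of 3 counts, and the call of Timd4 was lost without either fibroblast sample of that age. At 1.5 years 8 genes were lower, all but Cd68 and Ccr2, against 17.9% of all genes, and the median log2 difference of the 10 genes was -3.19. Cd68 was the core gene nearest to equal in the 2 tissues, with log2 differences of -0.31 at 14 weeks (SE 0.37, adjusted p = 0.565), -1.88 at 1 year (SE 0.39, adjusted p = 0.000489), and -0.70 at 1.5 years (SE 0.37, adjusted p = 0.145). With the offset for exon length these were 0.81 (adjusted p = 0.108), -0.86 (adjusted p = 0.105), and 0.77 (adjusted p = 0.115), so that the call at 1 year was lost, leaving 8 genes, and the direction turned at the other ages.

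**Figure D4:**
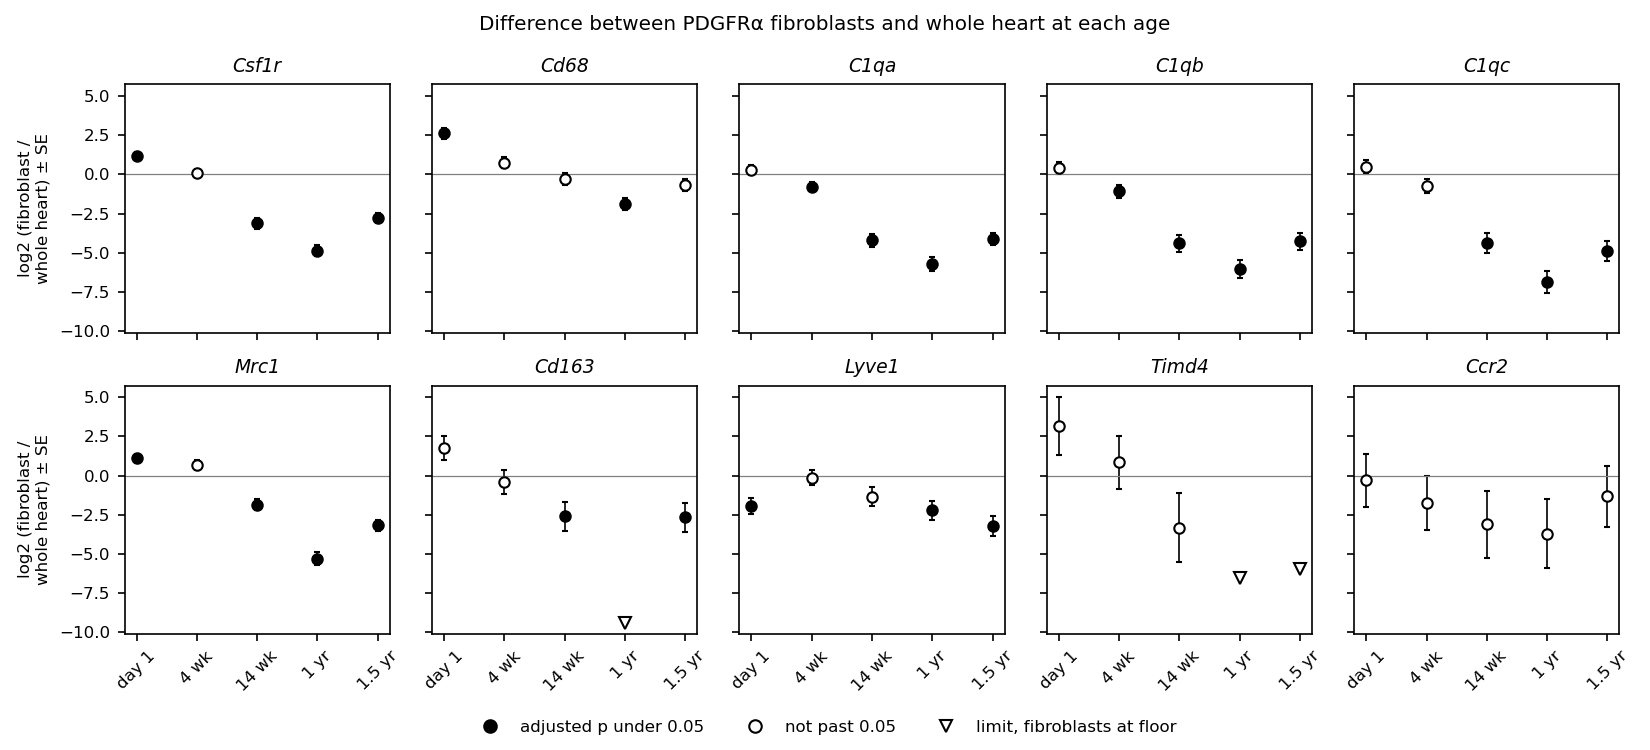
Log2 difference (with SE) between cardiac fibroblasts and whole hearts of the same age for each of the 10 genes, with filled symbols for an adjusted p under 0.05 and triangles for limits where a group had at most 3 counts per sample. At 1 year the points of the core genes lie between -6.86 and -1.88, and at postnatal day 1 between 0.28 and 2.61.

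An interaction term in the joint fit of the 27 samples asked if a change with age was unequal in the 2 tissues. From 4 to 14 weeks the fall was deeper in cardiac fibroblasts than in whole hearts for 5 of the 10 genes, against 0.286% of all genes lower in that sense. The differences were -3.23 for Csf1r (SE 0.41, adjusted p = 0.000279), -3.41 for C1qa (SE 0.48, adjusted p = 0.000747), -3.33 for C1qb (SE 0.63, adjusted p = 0.0114), -3.61 for C1qc (SE 0.73, adjusted p = 0.0167), and -2.55 for Mrc1 (SE 0.45, adjusted p = 0.00662). This test was added after the data were seen, and 3 of the calls remained without the fibroblast sample 4 of 14 weeks. From postnatal day 1 to 4 weeks 1 gene differed, Cd68, whose change was lower in cardiac fibroblasts than in whole hearts (-1.86, SE 0.47, adjusted p = 0.0151), against 3.96% of all genes lower in that sense, and the call was lost without the heart sample 2 of postnatal day 1. From 14 weeks to 1.5 years no gene passed with edgeR or with DESeq2, against 2.71% of all genes, and 3 of the 10 had an unadjusted p under 0.05 (Mrc1, Lyve1, and Timd4).

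Counts were also set against those of Csf1r in the same sample, a ratio that does not depend on library scaling and is not adjusted for gene length. In whole hearts the 3 C1q genes together had between 288 and 497 counts per 100 counts of Csf1r at postnatal day 1, between 341 and 537 at 4 weeks, between 312 and 438 at 14 weeks, between 467 and 593 at 1 year, and between 593 and 894 at 1.5 years. The highest sample of 1 year thus met the lowest of 1.5 years, and the short C1q transcripts and the long one of Csf1r had near-equal changes from 14 weeks to 1.5 years with the offset for exon length, except for C1qc. In cardiac fibroblasts they had between 119.7 and 330.2 at all ages, so that no fibroblast sample reached the lowest sample of the oldest hearts. Cd68 had between 11.4 and 55.7 counts per 100 of Csf1r in whole hearts. In cardiac fibroblasts it had between 22.0 and 64.0 at 4 weeks, between 72.9 and 189 at postnatal day 1, and between 123 and 303 from 14 weeks on, all above every heart sample. Cd163 had between 12.9 and 49.1 counts per 100 of Csf1r in cardiac fibroblasts at 4 weeks, 44.1 and 64.5 at 14 weeks, and 0 and 0.637 at 1 year. Lyve1 in whole hearts had between 127 and 301 at postnatal day 1 and at most 104 in every later sample.

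**Figure D5:**
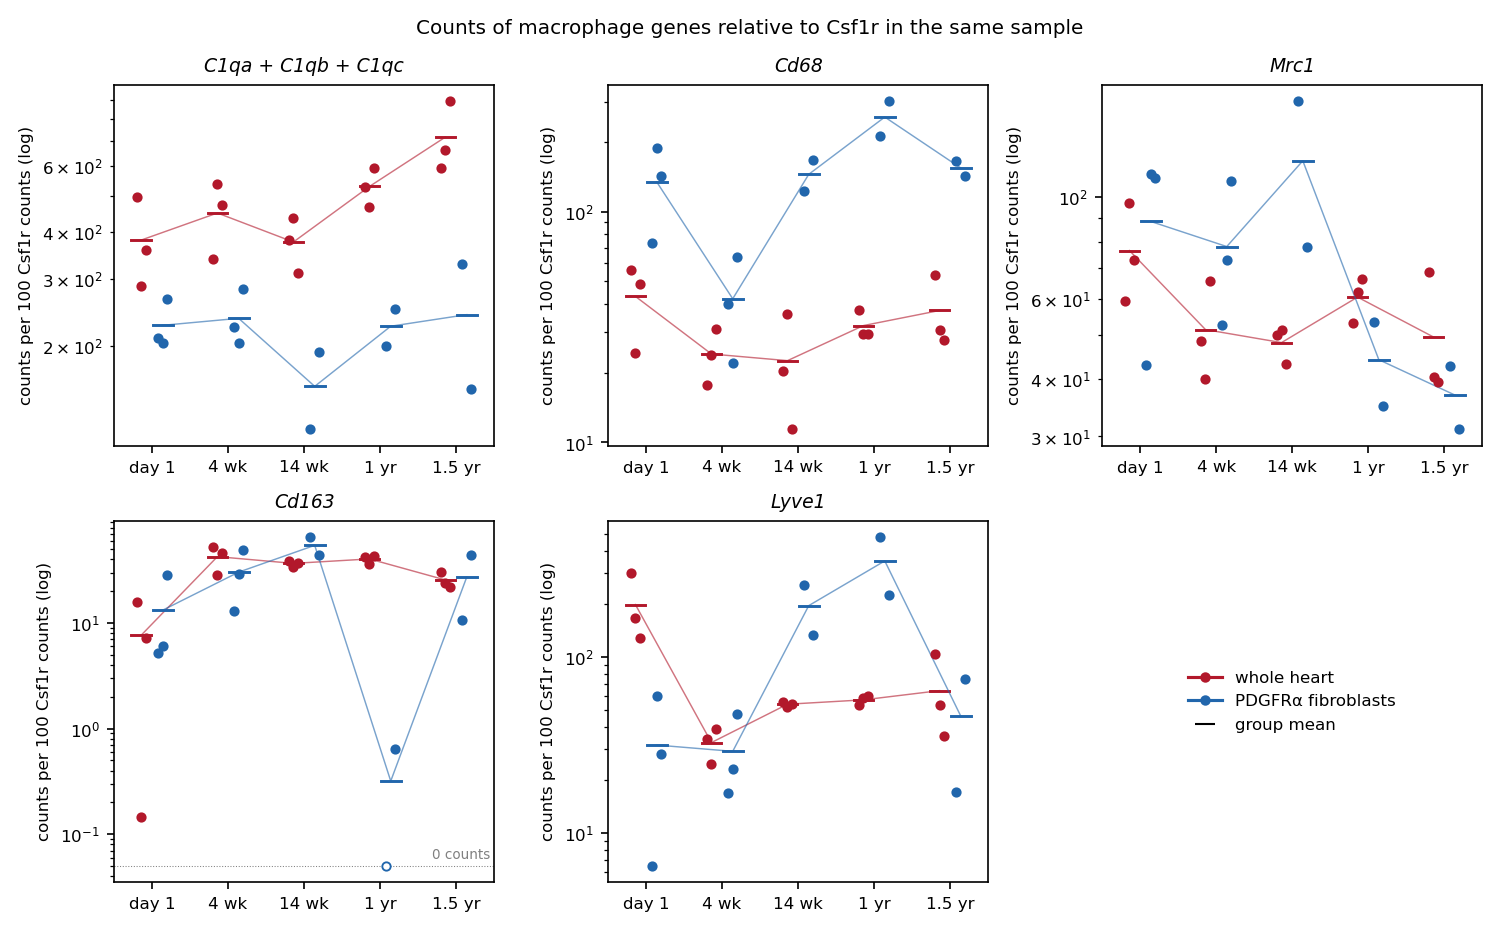
Counts of other macrophage genes per 100 counts of Csf1r in the same sample (log axis) at the 5 ages in whole hearts and cardiac fibroblasts, with bars at the group means, lines that join the means, and open circles for samples with 0 counts. Without adjustment for gene length, the C1q genes have their highest mean relative to Csf1r in the oldest hearts, and Cd68 relative to Csf1r is above every heart sample in cardiac fibroblasts at postnatal day 1 and from 14 weeks on.

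Levels of different genes were compared per 1000 exon bases. In whole hearts C1qa and C1qb had the highest levels at every age, in the order C1qb before C1qa at postnatal day 1 (17.95 ± 3.74 and 16.7 ± 7.71 CPM per 1000 bases, SD, n = 3, within each other's spread) and C1qa before C1qb after that. At 1.5 years C1qa was 169 ± 42.7, C1qb 133 ± 49.6, C1qc 85.1 ± 19.5, Cd68 19.4 ± 4.70, Lyve1 14.2 ± 6.06, and Csf1r 11.6 ± 1.61 CPM per 1000 bases, and only the steps from C1qc to Cd68 and from Csf1r to Mrc1 (5.08 ± 1.01) in that order exceeded the spread of both genes among those 7. Ccr2 and Timd4 had the lowest levels in whole hearts at every age. In cardiac fibroblasts Cd68 led at every age but 4 weeks, with 29.3 ± 2.30 CPM per 1000 bases at postnatal day 1 (SD, n = 3) and 4.72 ± 0.997 at 1 year (SD, n = 2). It lay within the spread of the next gene at postnatal day 1 (C1qb, 23.98 ± 12.9, SD, n = 3) and at 1.5 years (11.9 ± 1.01 against 9.70 ± 2.91 for C1qa, SD, n = 2).

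Other genes of the lineage were read from lists, and those named here were picked after their tests were seen. Of 15 other core macrophage genes, 10 rose in whole hearts up to 4 weeks, against 12.1% of all genes, and 6 were higher at 1.5 years than at 14 weeks, against 4.91%. At the latter step 22.5% of genes with 1000 to 2000 exon bases were called higher. The offset for exon length was not applied to these lists. In cardiac fibroblasts 2 of the 15 were higher at 4 weeks than at postnatal day 1 (Cd14 and Lyz2), a share near the 9.28% of all genes, and 5 fell to 14 weeks (Cd14, Ctss, Fcgr3, Laptm5, and Lyz2), against 2.08%. Of 8 other resident genes tested, 6 were higher in whole hearts at 4 weeks, against the same 12.1%. In cardiac fibroblasts 3 of the 8 fell from 4 to 14 weeks (Cbr2, F13a1, and Maf), against the same 2.08%, and Gas6 rose. Of 5 other genes of recruited monocytes tested (from Ly6c2, Chil3, Plac8, Ms4a4c, Ifitm6, and F10), none passed at any age step in either tissue with edgeR. An unadjusted p under 0.05 was reached by Ly6c2 in cardiac fibroblasts at 2 steps and by F10 and Ms4a4c in whole hearts at 1 step each. The sum of the 6 listed genes was at most 5.78 CPM in whole hearts and 6.80 CPM in cardiac fibroblasts.

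The ligands of these receptors and the partners of C1q were read beside them. Csf1, the main ligand of CSF1R, was 109, 103, and 100.1 CPM in cardiac fibroblasts of postnatal day 1, 200.04, 209.7, and 181 CPM at 4 weeks, 255 and 283 CPM at 14 weeks, 346 and 364 CPM at 1 year, and 322 and 242 CPM at 1.5 years. In whole hearts it was between 9.02 and 16.5 CPM at postnatal day 1, between 57.6 and 94.4 CPM at 4 weeks, and at most 57.2 CPM later. Csf1 rose to 4 weeks in both tissues, by 0.94 in cardiac fibroblasts (SE 0.12, adjusted p = 0.000171) and by 2.43 in whole hearts (SE 0.34, adjusted p = 6.85e-05), and was higher in cardiac fibroblasts at every age, by between 1.48 and 3.07 on the log2 scale. C1s1, a gene for the protease C1s, had a mean of 7.76 ± 3.26 CPM (SD, n = 3) in newborns, then 135 ± 10.01 (SD, n = 3) at 4 weeks, 455 ± 78.5 (SD, n = 2) at 14 weeks, and 1007 ± 22.9 (SD, n = 2) at 1 year in cardiac fibroblasts. It rose there by 4.15 to 4 weeks (adjusted p = 4.28e-07) and by 1.75 to 14 weeks (adjusted p = 0.00265), the step at which C1qa, C1qb, and C1qc fell. C1ra, a gene for its partner C1r, rose by 3.49 and 1.66 at the same steps (adjusted p = 1.74e-07 and 0.000638).

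Of the 8 genes in this list, 5 (Csf1, C1ra, C1s1, Ccl2, and Ccl7) were higher in cardiac fibroblasts than in whole hearts at every age, against 9.07% of all genes. Ccl2, a ligand of CCR2, had means between 22.3 and 74.3 CPM in cardiac fibroblasts and between 2.08 and 10.2 CPM in whole hearts, and Ccl7, another, between 6.47 and 125 CPM and between 0.417 and 6.66 CPM. Both rose in cardiac fibroblasts from 14 weeks to 1 year, Ccl2 by 1.68 (SE 0.33, adjusted p = 0.0244) and Ccl7 by 2.67 (SE 0.54, adjusted p = 0.0274), while Ccr2 had no call at that step in either tissue. Il34, the other ligand of CSF1R, had means between 1.30 and 6.89 CPM in cardiac fibroblasts and between 1.61 and 4.55 CPM in whole hearts, with no call at any age step or between the tissues. Ccl12, also a ligand of CCR2, went the other way at the older ages. It had 0 counts in cardiac fibroblasts at 14 weeks and 1 year and was lower there than in whole hearts at 14 weeks (adjusted p = 0.00310), 1 year (adjusted p = 0.000865), and 1.5 years (adjusted p = 0.0455). The complement regulator Cd46 had no call at any age step or between the tissues.

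The members varied together to different degrees, given here as correlations of log2 CPM across samples of a tissue, which share their ages and libraries. With the mean of C1qa, C1qb, and C1qc across 15 whole heart samples, Pearson's r was 0.94 for Csf1r, 0.88 for Cd68, 0.85 for Cd163, 0.84 for Timd4, and 0.83 for Mrc1, but 0.33 for Ccr2 and 0.27 for Lyve1. Across 12 fibroblast samples it was 0.98 for Csf1r, 0.90 for Mrc1 and Cd68, and 0.78 for Cd163, but 0.50 for Timd4, 0.24 for Lyve1, and -0.34 for Ccr2. Among the other genes with a mean of at least 1 CPM, the 8 most like the C1q genes in cardiac fibroblasts (of 13056) were C5ar1, C3ar1, F13a1, Fcer1g, Cx3cr1, Ctss, Fcgr3, and Lcp1, with r between 0.92 and 0.97. In whole hearts (of 13384) they were Pltp, Cst3, Clec3b, Srgn, Ly6e, Ighm, Cbr2, and Cyp4b1, with r between 0.96 and 0.98.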

How the data were processed

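RNA-Seq of polyA RNA from 12 cardiac fibroblast samples and 15 whole heart samples was read from 2 deposited tables of raw gene counts (22855 genes each). The authors aligned reads to mm10 with STAR 2.5.3a and counted them per gene, and the strand setting and annotation are not given in the sources used here. Counts were tested with edgeR 4.0.16 in R 4.3.3 (filterByExpr, TMM, quasi-likelihood F test, Benjamini-Hochberg over all genes tested, threshold 0.05). Each tissue was fitted with all its samples by age (18759 genes in cardiac fibroblasts, 17995 in whole hearts), and all 27 samples were fitted together (20650 genes) for differences between tissues. The SE was taken as |log2 fold change| over the root of F. Levels are CPM scaled by the TMM factors of the joint fit, and log2 CPM used a prior count of 2. A count of 0 allows up to 3 counts per library, which covers counting error only, and folds against such groups are bounds. Exon lengths came from a GRCm38 annotation.

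The 10 genes and all lists were chosen with earlier results of these data known, and 2 genes of these lists are not reported here. All 10 members were named whatever their values, every gene of the ligand and partner list was described, and the 8 genes most like C1q were taken by Pearson's r among tested non-members with a mean of at least 1 CPM. Alternatives were DESeq2 1.42.0, other scalings, no filter on low counts, only the groups compared, a replicate block, CPM by total counts, and each sample left out in turn. The offset for exon length and the interaction from 4 to 14 weeks were added after seeing the data. Counts of genes with an unadjusted p under 0.05 or without overlap between groups were not made over all genes. The fits were tested on simulated data.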

Additional observations from a re-analysis of the deposited data

Results flagged for a closer look

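For 6 results the change with age differed between cardiac fibroblasts and whole hearts by the test of the difference itself (edgeR's quasi-likelihood F test of the interaction). From postnatal day 1 to 4 weeks, Cd68 differed by -1.86 on the log2 scale (fibroblasts minus hearts). It was 1 of the 10 members, against 3.96% of all genes lower, and the call was lost without the heart sample 2 of postnatal day 1. From 4 to 14 weeks, Csf1r differed by -3.23, C1qa by -3.41, C1qb by -3.33, C1qc by -3.61, and Mrc1 by -2.55, against 0.286% of all genes lower. The interaction at this step was added after the data were seen, and not all of its calls held when single samples were left out. Fibroblast samples of 4 weeks carry numbers 1 to 3 and those of 14 weeks carry 4 and 6, so age and numbering set cannot be told apart in the last 5.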

How the results depend on the processing

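Counts of members called moved by more than 1.5 times under the following alternatives, where moves of exactly 1.5 times are left out. With DESeq2, 1 gene in place of 0 was called in cardiac fibroblasts from 14 weeks to 1.5 years, 3 in place of 0 in whole hearts from 14 weeks to 1 year, and 4 in place of 1 for the interaction from postnatal day 1 to 4 weeks. With median-of-ratios size factors that interaction gave 2, and whole hearts from 4 to 14 weeks gave 0 in place of 1. With library size only, the latter gave 2. With only the groups compared, whole hearts gave 0 at the step from 4 to 14 weeks and 5 at the next. Fibroblasts against hearts at 4 weeks gave 1 in place of 2 without a filter on low counts. That call was Mrc1, higher in fibroblasts (0.76, adjusted p = 0.0489, edgeR's quasi-likelihood F test), and both C1qa and C1qb were lost. At that age library size only called Cd68 and Mrc1 higher and neither C1qa nor C1qb lower. With the offset for exon length, whole hearts gave 1 in place of 3 from 14 weeks to 1.5 years and 2 from 4 to 14 weeks, and the interaction from postnatal day 1 to 4 weeks gave 2. With that offset fibroblasts against hearts at 4 weeks gave 1, Cd68, which was higher (1.82), with C1qa at 0.43 and C1qb at 0.12 reversed. The causes were not tested. With library size only, the median log2 difference of all genes lay between -0.75 and 0.71 over the comparisons. With CPM by total counts, mean levels were between 0.757 and 1.29 times those given in whole hearts. In fibroblasts they were between 1.02 and 1.25 times. On that scale Lyve1 in whole hearts had a mean of 36.0 CPM at postnatal day 1 and 34.5 CPM at 1.5 years.

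Same-numbered samples had correlations of deviations between -0.0635 and 0.1015, so the numbers were not read as pairs. Between the tissues these correlations were computed at postnatal day 1 and 4 weeks only. With the replicate block, fibroblasts from 14 weeks to 1 year gave 0 in place of 2, whole hearts from 4 to 14 weeks 0 in place of 1, and fibroblasts against hearts at 4 weeks 1 in place of 2. The block could not be fitted between fibroblast ages numbered 1 to 3 and those numbered 4 to 6.

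Leaving out each sample in turn, where a group left with 1 sample was assumed to vary like the others, gave in whole hearts 8 to 8 genes from postnatal day 1 to 4 weeks, 0 to 1 from 4 to 14 weeks, 0 to 1 from 14 weeks to 1 year, 3 to 4 from 14 weeks to 1.5 years, 8 to 9 at 1.5 years against postnatal day 1, and 8 to 9 over any age. In fibroblasts the same steps gave 2 to 4, 3 to 6, 0 to 3, 0 to 1, 2 to 4, and 7 to 8. From 14 weeks to 1 year they gave 1 without the fibroblast sample 4 of 1 year and 0 without the sample 5 of 1 year or the sample 4 of 14 weeks. Fibroblasts against hearts gave 4 to 5, 0 to 3, 5 to 6, 7 to 9, and 6 to 8 in order of age. The interactions gave 0 to 3 from postnatal day 1 to 4 weeks (0 without the heart sample 2 of postnatal day 1), 3 to 5 from 4 to 14 weeks, and 0 to 0 from 14 weeks to 1.5 years.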
